A study of Mus musculus with 4 samples.

Results

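TAM_Spp1 is the name the authors gave to a population of tumour-associated macrophages in a single-cell RNA sequencing experiment on mouse melanoma. Its members are all cells whose deposited cell type reads TAM_Spp1, which makes 4844 of the 33368 CD45+ cells in the files. The RTT tumour gave 2057 of them, RTT_ROSA26 1500, RTT_PTGS12KO 1267 and NTT 20. The study asked how melanomas that have become resistant to targeted therapy shape the immune cells around them, and what changes when the cancer cells can no longer make prostaglandins.

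All tumours grew from YUMM1.7 (Y1.7), a mouse melanoma line with Braf V600E and loss of Cdkn2a, which here also carried ovalbumin. NTT was the therapy-naive line, labelled NTT_3A6, and RTT a derivative labelled RTT_2B12 that had become resistant to inhibitors of the mutant pathway. RTT_ROSA26 was the resistant line with a control guide, and RTT_PTGS12KO the resistant line in which Ptgs1 and Ptgs2, the cyclooxygenases that start prostaglandin synthesis, had been disrupted. The labels do not say whether NTT_3A6 and RTT_2B12 are single clones, and the study's methods describe clones with inducible Cas9 as the source of edited lines and single-cell-derived clones for Ptgs2 knockouts. All recipients were Rag2-/- mice, which have no T or B cells of their own, and all received OT-1 T cells, which recognise ovalbumin, on day 7. Live CD45+ cells were sorted on day 10, which was 72 h later. The labels describe 1 sample for each line and the study's legends describe pooled tumours, and how many animals stand behind a sample was not settled here, so a tumour below means 1 sample, which may pool several. With 1 sample per line there was no replicate, so no difference between tumours could be tested. The intervals below cover counting error only, and the 3 loads of the same pooled cells into the instrument give a technical spread.

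Tumour macrophages mature from blood monocytes that enter the tumour. Macrophages rich in osteopontin, the product of Spp1, occur in many solid tumours and often express matrix proteins and angiogenic factors. Prostaglandin E2 raises cAMP in macrophages through the receptors Ptger2 and Ptger4, whereas interferon gamma drives transcription of MHC class II genes, guanylate-binding proteins and the T cell attracting chemokines Cxcl9 and Cxcl10.

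TAM_Spp1 cells were a large population in the 3 resistant tumours and rare in the therapy-naive tumour. They made up 12.3% of CD45+ cells in RTT_PTGS12KO (95% Clopper-Pearson interval 11.7 to 13.0), 21.9% in RTT_ROSA26 (21.0 to 22.9) and 25.8% in RTT (24.9 to 26.8), but 0.242% in NTT (0.148 to 0.373). The NTT share was 107-fold below that of RTT, on 20 cells. The RTT_PTGS12KO share was 1.78-fold below that of RTT_ROSA26, a log2 ratio of -0.83 (-0.93 to -0.74), and 2.10-fold below that of RTT, a log2 ratio of -1.07 (-1.16 to -0.98). Between the resistant tumours without the knockout the log2 ratio was -0.23 (-0.32 to -0.15), RTT_ROSA26 over RTT. Loads of 1 resistant tumour differed little, spanning 11.9 to 12.6% with the knockout, 21.1 to 22.7% in the control-guide tumour and 25.3 to 26.1% in RTT. Those of NTT, with few such cells, spanned 0.112 to 0.401%.

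Among macrophages alone the knockout share overlapped that of RTT_ROSA26 within counting error and lay below that of RTT. Among macrophages, TAM_Spp1 cells were 23.9% in RTT_PTGS12KO (22.7 to 25.1), 24.5% in RTT_ROSA26 (23.4 to 25.6) and 30.1% in RTT (29.0 to 31.2), so RTT_PTGS12KO and RTT_ROSA26 overlapped. The log2 ratio between those tumours was -0.04 (-0.13 to 0.06) on this denominator, and it was -0.33 (-0.42 to -0.25) for RTT_PTGS12KO over RTT. Both depend on the deposited names, since clusters made here gave the knockout fewer such cells, as described further on. Of the other classes, Monocyte_1 held 3347 cells in RTT_PTGS12KO, 54 in RTT_ROSA26 and 384 in RTT. In NTT, TAM_Spp1 cells were 6.08% of only 329 macrophages. Shares within a sort cannot tell fewer TAM_Spp1 cells from more of another kind.

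**Figure D1:**
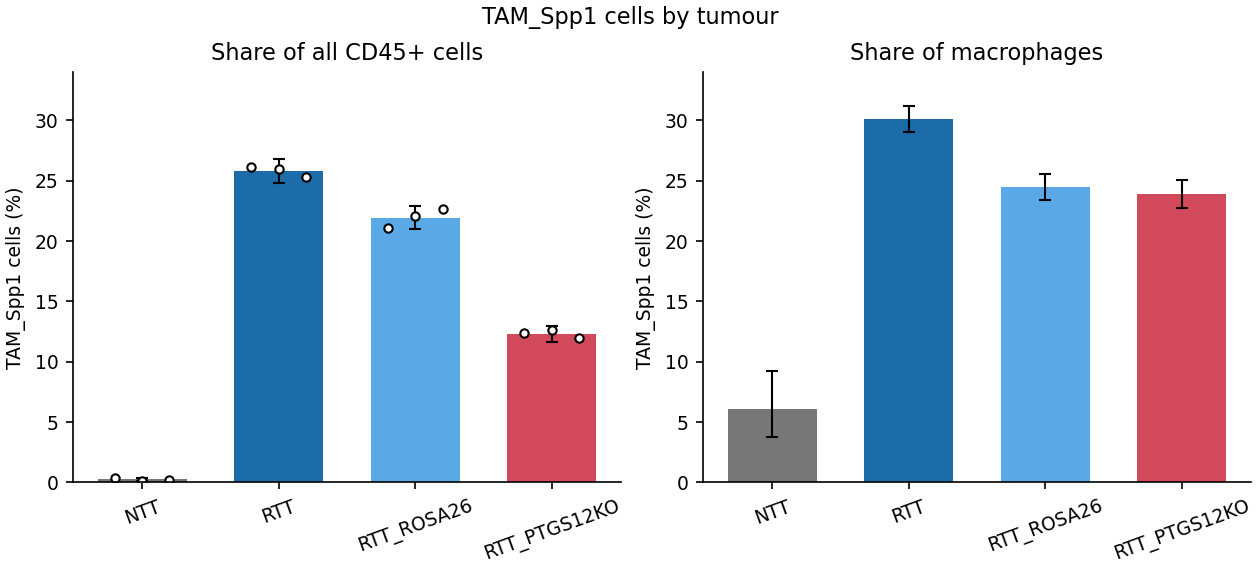
TAM_Spp1 cells as a percentage of CD45+ cells and of macrophages in each tumour, with bars for the share, lines for the 95% counting interval and open circles for the 3 loads. Of CD45+ cells, RTT_PTGS12KO lies at 12.3% between NTT at 0.242% and RTT_ROSA26 at 21.9%, whereas among macrophages RTT_PTGS12KO at 23.9% and RTT_ROSA26 at 24.5% overlap.

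The deposited name was compared with the genes that were given as its markers. Levels are CPM, the counts of a gene summed over the TAM_Spp1 cells of a tumour per 1000000 counts of those cells. The sums held 23154372 counts for RTT, 15743729 for RTT_PTGS12KO, 13714676 for RTT_ROSA26 and 193901 for the 20 NTT cells. Where 3 values follow each other below without names, their order is RTT, RTT_ROSA26, RTT_PTGS12KO. Spp1 was at 9759.6 CPM with the knockout, 9766 with the control guide, 8444 in RTT and 6431 in NTT. High Spp1 was shared with other cells: among cell types with at least 50 cells, those named Myofibrobl were higher in RTT, with 10505 CPM, and TAM_C1q cells, the complement-rich macrophages, had 4134, 5207 and 6884 CPM in the same tumours.

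The matrix genes Thbs1 and Fn1 were also prominent. Thbs1, which encodes the matrix protein thrombospondin 1, stood at 1763, 2350.4 and 1089 CPM, with neutrophils higher in RTT and RTT_PTGS12KO. Fn1, which encodes fibronectin, stood at 1438, 2136 and 2186 CPM and was highest in TAM_Spp1 among the cell types of all 3 tumours. Nt5e, Pde4d and Areg, also among the markers, were low. Nt5e, whose product CD73 makes adenosine from AMP, stood at 65.7, 89.1 and 100.4 CPM, Pde4d, a phosphodiesterase that breaks down cAMP, at 60.7, 98.8 and 28.5 CPM, and Areg, an EGF receptor ligand, at 55.8, 53.8 and 76.0 CPM. Nt5e and Pde4d were highest in TAM_Spp1 in all 3 tumours, and Areg in none of them.

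The genes that most set TAM_Spp1 apart from the other cells of its own tumour were not always those markers. In RTT the 10 leading genes were F10, Cd24a, Ccr2, Mcemp1, Rgcc, Ifitm1, Chil3, Vcan, Il1r2 and Nr4a2, among which none of the 9 markers appeared and Ccr2, Chil3 and Vcan are monocyte genes. In RTT_ROSA26 they included Thbs1 beside Vcan, Chil3, F10 and Ccr2. In RTT_PTGS12KO they included the markers Spp1, Nt5e, Cxcl1, Thbs1 and Fn1 beside Vegfa, Apoc2, Sgk1 and Rgcc. Because the names came from clustering on expression, these rankings describe the class and test nothing.

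Single cells carried the markers unevenly. When each cell was thinned to 5000 UMIs, which left out 118, 244 and 42 cells, Thbs1 was detected in 86.5%, 90.8% and 79.5% of TAM_Spp1 cells, against 14.1% of natural killer cells in RTT_PTGS12KO. Without thinning the shares were 92.2%, 94.9% and 87.2%, and 28.4% in the natural killer cells. Spp1 was detected in 94.2%, 92.6% and 93.8% of TAM_Spp1 cells (96.3%, 93.1% and 96.8% unthinned), but also in 77.5% of natural killer cells in RTT_PTGS12KO (85.0% unthinned), so its detection per cell does not separate the classes. Ppbp was detected in 10.2%, 6.69% and 2.04% of TAM_Spp1 cells (14.1%, 8.27% and 3.71% unthinned) and in 0 of the natural killer cells in RTT_PTGS12KO after thinning. The median TAM_Spp1 cell held 10499, 7803 and 11681 UMIs.

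**Figure D2:**
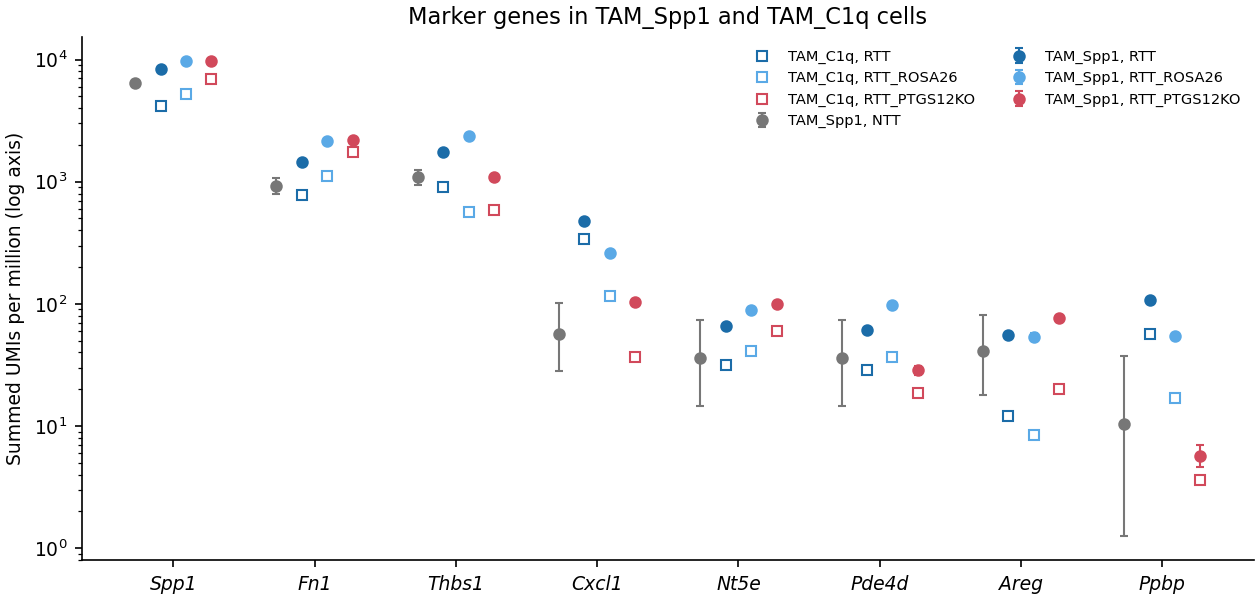
Level of TAM_Spp1 markers in CPM on a log axis, for TAM_Spp1 (filled circles, with 95% Poisson intervals) and TAM_C1q cells (open squares), each point a sum over the cells of 1 tumour. Spp1, Thbs1 and Fn1 lie above 1000 CPM in TAM_Spp1 cells of all resistant tumours, and Ppbp has the widest range across tumours, from 5.72 CPM in RTT_PTGS12KO to 108 in RTT.

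TAM_Spp1 cells were set beside TAM_C1q cells of the same tumour, the other large macrophage class, to see how they differ. The rule asked for a difference of at least 2-fold in the same direction in all 3 resistant tumours, which 77 of 6678 genes met in the direction higher in TAM_Spp1 (1.15%) and 112 in the direction lower (1.68%). In clusters made here from the counts, described further on, the higher count was 33, of which 31 were among the 77, and the lower count 76, and with a pseudocount of 10 CPM the counts were 41 and 53. These are descriptions of classes that were defined on the same counts. Only Areg of the 9 markers met it: its log2 ratios were 2.12, 2.54 and 1.87. For Spp1 they were 1.03, 0.91 and 0.50, so that the classes were nearest to each other with the knockout. In the same clusters Areg, Ptgs2 and Vegfa were lower in the TAM_Spp1-led than in the TAM_C1q-led clusters of the knockout tumour, with log2 ratios of -0.61, -0.28 and -0.047.

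Genes of monocytes were the group most clearly higher in TAM_Spp1. All 6 of the monocyte markers that passed the filter met the rule. Ccr2, the chemokine receptor by which monocytes leave the bone marrow, stood at 388, 616 and 515 CPM in TAM_Spp1 and at 52.7, 100.2 and 184 CPM in TAM_C1q. Vcan, which encodes the proteoglycan versican, had log2 ratios of 3.52, 3.87 and 2.62, and Chil3, a chitinase-like protein of monocytes and activated macrophages, 3.75, 4.35 and 2.35. Of genes with a mean of at least 50 CPM, the 10 with the largest ratio in the tumour where it was smallest were F10, Il1r2, Mcemp1, Chil3, Napsa, Ifitm1, Cxcl3, H2-Eb1, H2-Aa and Slpi. F10 encodes coagulation factor X and Il1r2 the decoy receptor for interleukin 1. The antigen presentation genes were on the same side: 4 of the 7 MHC class II genes that passed met the rule, with H2-Ab1 at 1019, 979 and 2061 CPM in TAM_Spp1 and 238, 252 and 620.5 CPM in TAM_C1q. None of the MHC class II genes met it in the clusters made here.

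Single inflammatory and angiogenic mediators were higher in TAM_Spp1, but not their lists as a whole. Of 7 inflammatory cytokines that passed, only Il1b met the rule, and Il10, an anti-inflammatory cytokine, had log2 ratios of -0.90, -0.14 and -0.56. Of 10 other growth factors, 2 met it as higher, Vegfa and Inhba, and 3 as lower, Igf1, Gdf15 and Vegfb. Of 9 prostanoid and leukotriene genes, 1 was higher and 1 lower. Ptgs2, the inducible cyclooxygenase, stood at 719, 607 and 454 CPM in TAM_Spp1 against 221, 147 and 184 CPM in TAM_C1q. Ptgs1, the constitutive form, was the other way round, at 32.1, 23.5 and 15.2 CPM against 91.4, 68.8 and 27.8 CPM. These cyclooxygenase counts belong to the macrophages of the host. The knockout was made in the cancer cells, which the CD45+ sort is meant to leave out, and the targeted genes were not checked here. Vegfa, the main angiogenic factor, stood at 460, 469 and 317 CPM, the highest of all cell types in each, and its log2 ratios to TAM_C1q were 1.32, 1.63 and 1.16. Inhba, which encodes the activin A subunit, had log2 ratios of 2.26, 2.47 and 2.59 at a low level of 21.9 to 47.3 CPM. Il1b, which encodes interleukin 1 beta, stood at 3172, 2370.2 and 2512 CPM against 1042, 693 and 714 CPM.

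Some genes of complement-rich and lipid-associated macrophages were lower. The 10 genes furthest below TAM_C1q were Vcam1, Gas6, Npl, Ccl8, Serpinb6a, Folr2, Fcrls, Hpgds, Ctla2a and Fcgrt. Gas6, a bridging molecule for the uptake of dead cells, had log2 ratios of -4.53, -4.19 and -3.87. Of the lipid-associated macrophage genes 5 of 13 met the rule in this direction, and of the complement macrophage markers 3 of 9, with none of either list in the other. Apoe, which encodes the lipid carrier apolipoprotein E, stood at 11064, 8452 and 6455 CPM in TAM_Spp1 against 30621, 22274 and 11391 CPM in TAM_C1q. C1qa of the complement component C1q stood at 1252, 981 and 1349 CPM against 3262, 3188 and 2568 CPM. Neither gene was lower by 2-fold with the knockout, so neither met the rule. Apoe and C1qa thus remained abundant in TAM_Spp1, whereas Gas6 stood at only 4.97, 7.29 and 5.21 CPM, below the 10 CPM filter.

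**Figure D3:**
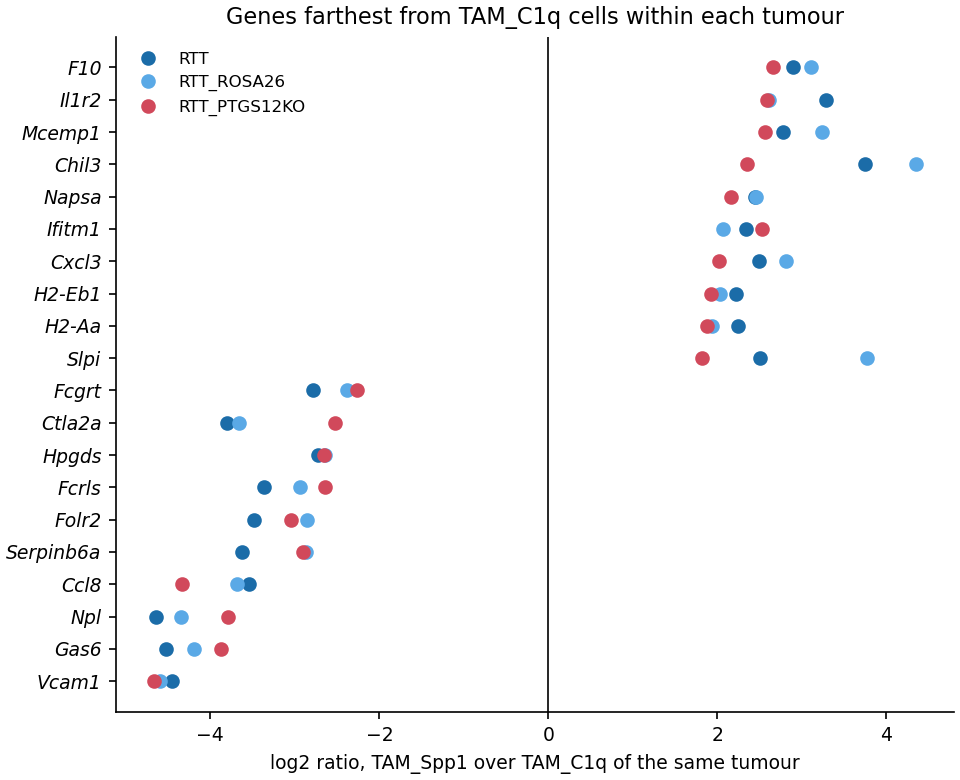
Log2 ratio of CPM in TAM_Spp1 over TAM_C1q for the 10 genes furthest in each direction, with 1 point for each resistant tumour and a line at no difference. Monocyte genes such as Chil3, with 3.75, 4.35 and 2.35, lie to one side and Gas6, with -4.53, -4.19 and -3.87, to the other in all 3 tumours.

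The knockout tumour was compared with both resistant tumours that keep the genes, and a gene was counted when its TAM_Spp1 level was at least 2-fold above, or below, both of them. Of 6445 genes with a mean of at least 10 CPM, 46 were higher (0.714%) and 28 lower (0.434%) by that rule. The higher count depends on which cells carry the name TAM_Spp1: it was 9 in clusters made here without the authors' integration, 8 of them among the 46, and 15 in cells on which both assignments agreed, where the lower counts were 38 and 31. With a pseudocount of 10 CPM in place of 1 the counts were 25 higher and 14 lower. For scale, RTT_ROSA26 was at least 2-fold above RTT for 26 genes (0.403%) and below it for 35 (0.543%), although neither carries the knockout. The median log2 ratio over all 6445 genes was -0.09 against RTT_ROSA26 and -0.03 against RTT, and pairs of log2 ratios below keep that order. By the deposited names, 13 of the 46 higher genes were on the interferon gamma list, a number that fell to 0 in the clusters made here and to 3 where both assignments agreed, and 4 of the 28 lower genes were CXC chemokines. Both contrasts share the knockout sample, so their ratios are not independent.

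Of the 6 chemokines of the CXCR2 and platelet type, which chiefly attract neutrophils or derive their names from platelets, 5 passed the filter, 4 were lower with the knockout and none was higher. Their median log2 ratio was -1.31 against RTT_ROSA26 and -1.54 against RTT. Ppbp, the precursor of several platelet chemokines, was at 5.72 CPM with the knockout, 54.1 with the control guide, 108 in RTT and 10.3 in NTT, which gave the lowest log2 ratios of any named gene, -3.04 against RTT_ROSA26 and -4.02 against RTT. Its loads spanned 3.59 to 8.44 CPM with the knockout, 40.8 to 65.6 with the control guide and 96.6 to 122 in RTT, without overlap. Cxcl1, a neutrophil attractant, was at 104 CPM with the knockout, 259 with the control guide, 481 in RTT and 56.7 in NTT, with log2 ratios of -1.31 and -2.20. Cxcl3, a close relative, stood at 187, 196 and 64.2 CPM. Pf4, which encodes platelet factor 4, was far more abundant, at 3272, 2773 and 1123 CPM. Cxcl2 followed in the same direction without reaching 2-fold, at 6550.4, 5378 and 3434 CPM with log2 ratios of -0.65 and -0.93. The NTT values of Ppbp and Cxcl1 rest on 2 and 11 counts in 20 cells. In those NTT cells Cxcl3, Pf4 and Cxcl2 stood at 737, 2347 and 5652 CPM, above the knockout tumour. Of the 143 Cxcl3 counts in NTT, 138 came from 1 cell.

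These genes lie next to each other. On GRCm38, Cxcl5, Ppbp, Pf4, Cxcl3, Cxcl1 and Cxcl2 occupy a stretch of 147 kb on chromosome 5, from 90759360 to 90905938, that holds 7 protein-coding genes in all. Cxcl5 was below 1 CPM in each resistant tumour and Cxcl15, the other gene of the stretch, was at 0 in all of them. Areg lies further along, from 91139599, and was not lower, at 55.8, 53.8 and 76.0 CPM. Cxcl9 and Cxcl10, from 92321347 and 92346638 on the same chromosome, were on the opposite side by the deposited names. The loads of Cxcl9 overlapped, spanning 8.08 to 60.2 CPM in RTT and 52.8 to 124 with the knockout. In the clusters made here the log2 ratio of Cxcl9 against RTT was -0.17.

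Promoter sequences are shown for 3 lower chemokine genes of this stretch and for Cxcl10, the gene with the highest ratios among those named, as examples from both sides that were picked after their values were seen. Each is the 250 bases before the RefSeq gene start on GRCm38.p6, 5′ to 3′ on the strand of the gene, with matches to 4 motifs in capitals: the cAMP response element TGACGTCA, the kappa B motif GGGNNNTTCC, the gamma-activated site TTCNNNGAA, and the interferon-stimulated response element, ISRE, searched as GAAANNGAAA. Both strands were searched, and neighbouring kappa B matches overlap within a run of capitals. The windows are chr5:90768268-90768517 on the plus strand for Ppbp, chr5:90785851-90786100 on the plus strand for Cxcl3, chr5:90890995-90891244 on the plus strand for Cxcl1 and chr5:92348890-92349139 on the minus strand for Cxcl10.
Ppbp: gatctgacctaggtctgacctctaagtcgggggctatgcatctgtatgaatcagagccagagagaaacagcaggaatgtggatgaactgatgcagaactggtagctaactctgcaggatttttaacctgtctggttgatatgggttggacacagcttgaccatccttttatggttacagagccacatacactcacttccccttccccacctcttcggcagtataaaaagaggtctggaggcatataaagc
Cxcl3: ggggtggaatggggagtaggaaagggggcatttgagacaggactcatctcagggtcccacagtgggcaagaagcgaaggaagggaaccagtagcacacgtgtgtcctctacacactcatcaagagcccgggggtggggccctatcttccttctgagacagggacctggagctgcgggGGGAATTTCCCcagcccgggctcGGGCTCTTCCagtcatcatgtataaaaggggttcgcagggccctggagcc
Cxcl1: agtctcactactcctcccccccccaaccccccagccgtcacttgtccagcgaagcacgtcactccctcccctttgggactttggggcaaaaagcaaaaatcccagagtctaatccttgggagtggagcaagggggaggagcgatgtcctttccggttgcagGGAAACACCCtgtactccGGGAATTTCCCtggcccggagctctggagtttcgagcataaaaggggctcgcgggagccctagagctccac
Cxcl10: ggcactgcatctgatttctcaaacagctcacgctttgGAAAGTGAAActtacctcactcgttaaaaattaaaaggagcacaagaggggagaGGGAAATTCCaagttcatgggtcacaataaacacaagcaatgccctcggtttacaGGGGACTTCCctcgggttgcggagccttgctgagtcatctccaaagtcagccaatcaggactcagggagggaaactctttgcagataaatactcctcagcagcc
The windows of Cxcl3 and Cxcl1 each held 3 kappa B matches and none of the other motifs. That of Cxcl10 held 2 kappa B matches and 1 ISRE, which starts 213 bases before the gene, and that of Ppbp held none of the 4 motifs. The ISRE letters occurred in 12 of the 36 higher genes with a RefSeq promoter (33.3%), in 0 of 23 lower genes and in 187 of 5205 genes that passed the filter (3.59%). The kappa B letters occurred in 4 of 23 lower genes (17.4%), in 2 of 36 higher genes (5.56%) and in 6.42% of genes that passed. The gamma-activated site occurred in 5 of 36 higher genes (13.9%), 3 of 23 lower genes (13.0%) and 6.72% of genes that passed. The cAMP response element occurred in 1 gene on either side and in 3.42% of genes that passed. A match describes letters and not a bound site.

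Of the 18 interferon gamma genes, 16 passed the filter, 13 were at least 2-fold higher with the knockout than in both other resistant tumours and all 16 lay above both, with medians of 2.55 and 1.36. This count rests on which cells carry the name TAM_Spp1: it was 0 in clusters made here without the authors' integration and 3 in cells on which both assignments agreed, as described further on. The direction also turned for some members: in the clusters made here Gbp2, Cxcl9 and Gbp5 lay below RTT, with log2 ratios of -0.19, -0.17 and -0.16. Cxcl10 was at 796 CPM with the knockout, 55.9 with the control guide, 93.6 in RTT and 211 in NTT, with log2 ratios of 3.81 and 3.07, the highest among the named genes. In cells on which both assignments agreed it stood at 62.2, 51.9 and 120 CPM, with log2 ratios of 1.20 and 0.94, so that it missed the rule against RTT. Its loads spanned 680 to 956 CPM with the knockout, 46.6 to 72.7 with the control guide and 83.9 to 116 in RTT. After thinning, Cxcl10 was detected in 33.5% of TAM_Spp1 cells with the knockout (41.4% unthinned), against 11.4% in RTT and 11.5% in RTT_ROSA26, but natural killer cells of the knockout tumour showed 18.5% (28.8% unthinned). Inflammatory monocytes of that tumour held far more, 2410.5 CPM, and TAM_Spp1 ranked 7 of 12 cell types for Cxcl10.

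The other members covered the usual steps of the response. Irf1, a transcription factor of the pathway, stood at 96.8, 27.8 and 227 CPM. Gbp2, a guanylate-binding protein of cell-autonomous defence, stood at 70.7, 24.4 and 190 CPM, and Iigp1, an interferon-inducible GTPase, at 15.3, 6.42 and 101 CPM. Socs1, a feedback inhibitor of the pathway, stood at 15.9, 9.84 and 67.4 CPM. By the deposited names, RTT lay between the other resistant tumours for each of them. In the clusters made here Gbp2 was lower with the knockout than in RTT, with a log2 ratio of -0.19. Of the list, 11 of the 16 genes were at least 2-fold lower in RTT_ROSA26 than in RTT, but only 2 were with a pseudocount of 10 CPM. The summed level of the list was 695, 313 and 2254 CPM. Of the type I interferon genes 5 passed and 2 were higher, Isg15 at 28.9, 25.5 and 64.6 CPM and Rsad2 at 8.68, 8.46 and 20.8 CPM.

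MHC class II genes shared the direction. All 8 lay above both other resistant tumours and 4 were at least 2-fold above them, H2-Ab1, H2-Aa, H2-Eb1 and Ciita, with medians of 1.11 and 0.98 over the 8. H2-Ab1, a chain of the molecule that presents peptides to CD4 T cells, was at 2061 CPM with the knockout, 979 with the control guide, 1019 in RTT and 2496 in NTT. Ciita, the master regulator of these genes, stood at 7.77, 7.51 and 27.4 CPM in the resistant tumours. Cd74, the invariant chain, just missed the rule, at 373, 332 and 711 CPM. Here RTT and RTT_ROSA26 were nearly level, unlike the interferon gamma genes. With both assignments of the cells in agreement the count was 1.

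TAM_C1q cells of the same tumours showed many of the same directions. Cxcl10 stood there at 87.8, 70.5 and 621 CPM, Gbp2 at 59.8, 24.9 and 192 CPM and H2-Ab1 at 238, 252 and 620.5 CPM. The chemokines did too, with Ppbp at 56.9, 17.1 and 3.60 CPM and Cxcl1 at 338, 117 and 36.9 CPM. Whether any of these differences was greater in TAM_Spp1 than in TAM_C1q was not tested. Chil3 did not go together in the classes: it had log2 ratios of -1.47 against RTT_ROSA26 and -1.44 against RTT in TAM_Spp1 but 0.53 and -0.04 in TAM_C1q. For Thbs1 the classes were close against RTT, with -0.69 in TAM_Spp1 and -0.62 in TAM_C1q, and apart against RTT_ROSA26, with -1.11 and 0.06. In TAM_cycling cells, another macrophage class, the interferon gamma genes summed to 965, 400 and 4393 CPM, against 695, 313 and 2254 CPM in TAM_Spp1.

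**Figure D4:**
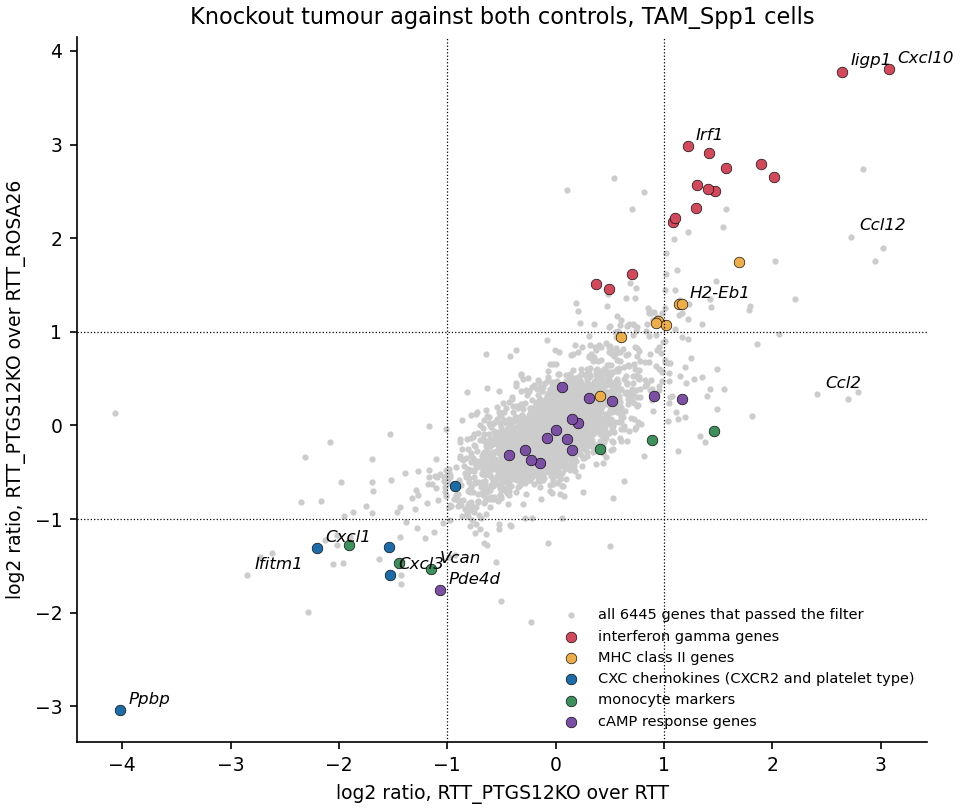
Log2 ratio of TAM_Spp1 levels in RTT_PTGS12KO over RTT on one axis and over RTT_ROSA26 on the other, with 1 grey point per gene, members of 5 lists in colour and dotted lines at a 2-fold difference. Interferon gamma genes such as Cxcl10 (3.07 and 3.81) lie in the upper right, and chemokines such as Ppbp (-4.02 and -3.04) in the lower left.

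Beyond the chemokines, the lower genes included monocyte genes and a cAMP phosphodiesterase. Of the 6 monocyte markers that passed, 3 were lower with the knockout, a count that fell to 0 where both assignments of the cells agreed. Chil3 stood at 299, 305 and 109 CPM, Vcan at 93.4, 122 and 41.5 CPM and Hp, which encodes haptoglobin, at 68.7, 44.0 and 17.6 CPM. Ccr2 and Ly6c2, the other defining monocyte genes, were not lower by this rule, at 388, 616 and 515 CPM and 38.5, 80.9 and 72.3 CPM. Pde4d stood at 60.7, 98.8 and 28.5 CPM, with log2 ratios of -1.76 and -1.06, and where both assignments of the cells agreed it missed the rule, with -1.11 and -0.44. It was the only one of 16 cAMP response genes past the rule, and the median of that list was -0.09 and 0.08, at the level of all genes. Tnf, an inflammatory cytokine, stood at 178, 109 and 47.0 CPM, and Id3, an inhibitor of basic helix-loop-helix factors, at 44.2, 45.0 and 15.9 CPM. Ifitm1, an interferon-induced membrane protein, ran against the interferon gamma list, at 5444, 2285 and 754 CPM. Acp5, the tartrate-resistant acid phosphatase of osteoclasts, stood at 238, 169 and 60.3 CPM and Gsr, glutathione reductase, at 170.4, 115 and 40.3 CPM.

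Of the 46 higher genes, 13 were on the interferon gamma list and 4 on the MHC class II list, and the others were on neither. Ccl12, a monocyte attractant, stood at 65.7, 108 and 440 CPM and was the only one of 10 CC chemokines past the rule. Gatm, the enzyme that uses arginine to make a creatine precursor, had log2 ratios of 1.75 and 2.03, and Slc7a2, an arginine transporter and the only one of 13 arginine and polyamine genes past the rule, 2.07 and 1.22. Naaa, a lysosomal amidase, had 1.30 and 1.23, and Ifi203, an interferon-inducible gene of a family of near-identical copies whose counts are uncertain, 1.54 and 1.48. Outside that naming rule, Axl, a receptor for Gas6, stood at 24.4, 35.4 and 87.2 CPM and Icam1, an adhesion molecule, at 32.8, 27.6 and 67.3 CPM, and both were picked after their values were seen.

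Several programmes linked to this macrophage class showed little difference at this resolution. Spp1 stood at 8444, 9766 and 9759.6 CPM, with log2 ratios of 0.00 and 0.21. None of the 23 hypoxia and glycolysis genes passed the rule, yet 19 of them lay above both other resistant tumours, with medians of 0.39 and 0.30 where all genes had -0.09 and -0.03. Ldha, the lactate dehydrogenase of glycolysis, stood at 886, 844 and 1141 CPM. None of the 9 prostanoid and leukotriene genes, the 7 adenosine genes, the 10 checkpoint genes, the 12 lipid-associated genes or the 12 immediate-early and heat-shock genes passed it in either direction. The same held for the 12 integrin and CD44 genes, the 7 other growth factors and the 3 EGF family ligands that passed the filter. Of 15 transcription factors Id3 alone met the rule, as did Vcan of 6 matrix genes, Tnf of 7 inflammatory cytokines and Acp5 of 3 osteoclast-type genes, all of them lower. The prostaglandin receptor genes were low, Ptger2 at 11.6, 12.8 and 9.72 CPM and Ptger4 at 7.39, 14.4 and 17.8 CPM.

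Part of these results depended on which cells carry the name. All monocytes and macrophages were clustered again from the counts, without integration with other experiments, and 2 of the new clusters consisted mostly of TAM_Spp1 cells. These clusters held 91.9% of the deposited TAM_Spp1 cells in RTT and 94.6% in RTT_ROSA26 but only 39.8% in RTT_PTGS12KO, or 504 of 1267 cells. Of the 763 knockout cells outside, 578 fell in a cluster in which TAM_C1q was the most frequent name and 1648 of 2073 cells came from the knockout tumour. By these clusters the share of CD45+ cells was 7.24% with the knockout, 26.7% with the control guide and 32.7% in RTT, a wider gap than by the deposited names.

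The cells inside and outside differed in the summed interferon gamma genes far more than in the summed chemokines. With the knockout, the summed interferon gamma genes were 901 CPM inside and 2965 CPM outside, against 591 and 1681 CPM in RTT and 269 and 765 CPM in RTT_ROSA26. In each tumour the cells outside held more of these transcripts, and with the knockout most cells were outside. MHC class II genes summed to 6673 CPM inside with the knockout, against 3559 in RTT and 3001 in RTT_ROSA26. The CXC chemokines summed to 4012 CPM inside and 5110 CPM outside with the knockout, against 10568 and 10889 in RTT and 8927 and 5910.5 in RTT_ROSA26, so cells inside were lower than those of both other tumours. Ppbp inside was 3.87 CPM with the knockout, 114 in RTT and 57.4 in RTT_ROSA26. Cxcl1 inside was 43.7, 433 and 254 CPM in that order, but Cxcl3 was 105, 201 and 204 CPM and no longer 2-fold lower. Outside, in the same order, Cxcl1 was 135, 930 and 311 CPM. Cxcl3 was 42.8, 56.7 and 114 CPM there, and Ppbp 6.69, 45.3 and 20.6 CPM. Single chemokines thus differed in opposite directions between inside and outside, which their sum does not show. The list's count inside was again 4, of which 3 were among the 4 by the deposited names. Because the clusters were made from the same counts, a cell with more interferon gamma transcripts can be placed elsewhere for that reason, and the part this has in the result was not tested.

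**Figure D5:**
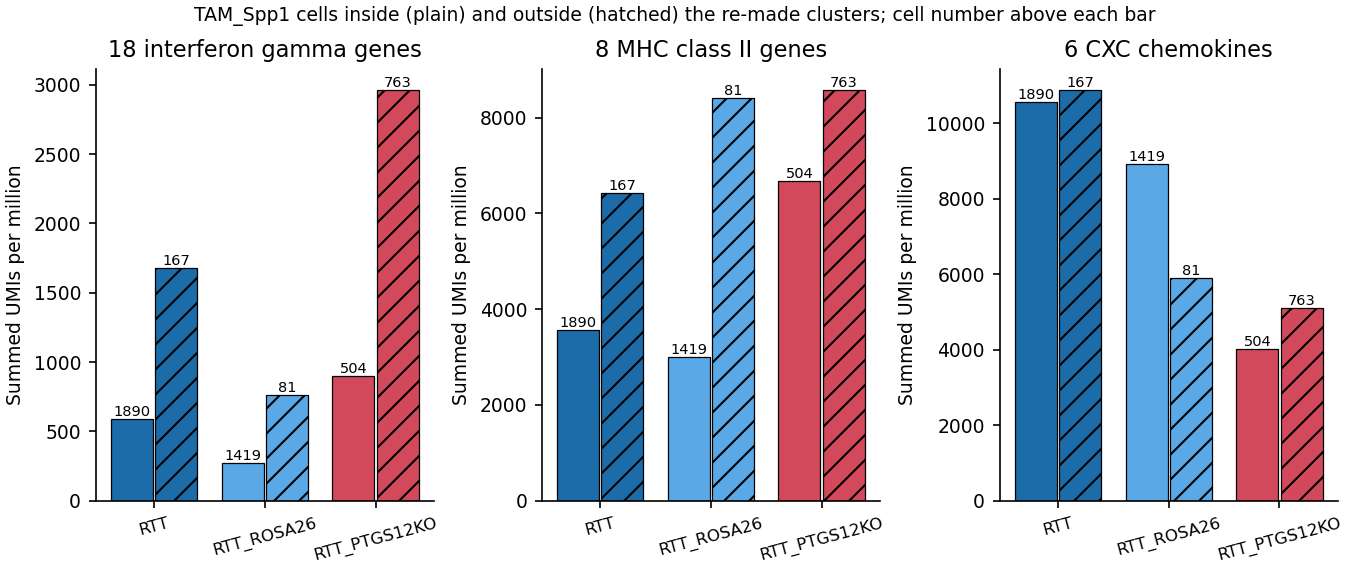
Summed CPM of gene lists in TAM_Spp1 cells that the clusters made here place inside or outside their TAM_Spp1-led clusters, by tumour, plain bars for inside and hatched bars for outside, with the number of cells on each bar. Interferon gamma genes are higher outside than inside in each tumour, 2965 against 901 CPM with the knockout, where 763 of 1267 cells lie outside.

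RTT and RTT_ROSA26, which share the resistant background, also differed in these cells. The genes furthest above RTT in RTT_ROSA26 were Ccl7, Ccl2, Plac8, Slpi and Cx3cr1. Ccl2, the main monocyte attractant, stood at 221 CPM in RTT and 934 in RTT_ROSA26, and Ccl7, which acts on the same receptor, at 76.0 and 409 CPM. With the knockout they stood at 1179 and 497 CPM, near RTT_ROSA26, so they were at least 2-fold above RTT alone and did not meet the rule. Plac8, a monocyte gene, stood at 74.7 and 216 CPM. The 5 genes furthest below RTT were AW112010, Jaml, Irf1, Ly6a and Gbp2. Jaml, an adhesion molecule of leukocytes, stood at 104 and 27.1 CPM. Hbb-bs, a haemoglobin gene and so a trace of red blood cells, stood at 81.5, 3.50 and 3.94 CPM, and was picked after its value was seen.

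Markers of other cells were low in TAM_Spp1. The T cell, natural killer, dendritic cell, B cell, mast cell and fibroblast lists had no member past the filter, and their summed levels in the resistant tumours were at most 10.2 CPM. Of the melanoma markers only Mitf, which macrophages also express, passed, and 3 others were at 0. Neutrophil markers summed to 220, 253 and 173 CPM. Of the 7 platelet markers only Pf4 passed, at 3272, 2773 and 1123 CPM, 2 were at 0 in all tumours and the sum of all but Pf4 was below 1 CPM in each, so platelet transcripts other than Pf4 and Ppbp were nearly absent. General macrophage markers were abundant, Lyz2, which encodes lysozyme, reaching 13790.1, 12529 and 10036 CPM. The 20 NTT cells were mixed: 430 of their 439 counts of the neutrophil gene S100a8 came from 1 cell, and they held more of the monocyte gene Ly6c2, 732 CPM, than the resistant tumours did.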

How the data were processed

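CD45+ cells of 4 samples were tagged, pooled and loaded 3 times for 10x sequencing. The deposited matrix holds raw UMI counts, which the authors made with Cell Ranger on mm10, and the cell table holds their filters and cell type names, made in Seurat 4.3.0 after integration with other experiments. Their limits were more than 1000 genes per cell, less than 15% mitochondrial counts and less than 40% ribosomal counts, and all deposited cells met them. No doublet caller was run here. Doublet treatment before deposit is not given in the sources used here.

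Counts were summed per tumour and cell type, divided by the total and multiplied to CPM. Ratios are log2 of CPM + 1 on both sides, so changes of low genes are understated. Genes needed a mean of 10 CPM over the resistant tumours, or over both classes for TAM_C1q, and a call a 2-fold difference. Genes named are the 9 markers, genes of the 35 lists, and, among genes with a mean of at least 50 CPM, the 8 furthest in each direction with the knockout, 5 between RTT_ROSA26 and RTT and 10 against TAM_C1q. The members and lists were chosen with earlier results of these data known. Intervals are exact (Poisson for CPM, Clopper-Pearson for shares) at 95% and, since no replicates exist, no p-value was computed. No cell barcode occurred more than once within a load, and 196 cells, 25 of them TAM_Spp1, had a barcode that also occurred in another load. Own clusters used 3000 variable genes, 40 components, 20 neighbours and Leiden clustering at resolution 0.5. The macrophage denominator was all deposited macrophage classes. Python 3.11.15, scanpy 1.11.5, igraph 0.11.9 and edgeR 4.0.16 (TMM factors only) were used, and the calling script was tested on simulated data. Coordinates are on GRCm38, and promoters came from RefSeq. Alternatives were a pseudocount of 10 CPM, no minimum, TMM factors, over 1500 genes with under 10% mitochondrial counts, leaving out the 5% of cells with most counts, own clusters and, added after seeing the data, only cells on which both assignments agreed. Some items withheld from the text are not reported here.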

Additional observations from a re-analysis of the deposited data

How the results depend on the processing

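No paired analysis was possible because each line has 1 sample. For the same reason no sample could be left out, and depth limits low genes such as Ppbp with the knockout, which rests on 90 counts. Own clusters gave shares of 7.24% (RTT_PTGS12KO), 26.7% (RTT_ROSA26) and 32.7% (RTT), with log2 share ratios of -1.89 (RTT_PTGS12KO over RTT_ROSA26) and -2.18 (over RTT). Without the 5% of cells with most counts the shares were 27.0% in RTT and 23.0% in RTT_ROSA26. With over 1500 genes and under 10% mitochondrial counts the RTT_ROSA26 share was 20.4%, and the log2 ratios were -0.70 for RTT_PTGS12KO over RTT_ROSA26 and -0.33 for RTT_ROSA26 over RTT.

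With a pseudocount of 10 CPM, 25 genes were higher and 14 lower with the knockout, 11 higher and 18 lower in RTT_ROSA26 than in RTT, and 41 higher and 53 lower than in TAM_C1q, and 2 interferon gamma genes were lower in RTT_ROSA26. With no minimum level these counts were 92, 54, 52, 69, 121 and 199. With own clusters 9 genes were higher with the knockout, 8 of them among the 46, and 53 were lower in RTT_ROSA26 than in RTT and 33 higher than in TAM_C1q. Of the lists, 0 interferon gamma genes and 1 MHC class II gene were then higher with the knockout, 0 monocyte markers lower, and 0 MHC class II genes higher than in TAM_C1q. In cells on which both assignments agreed, chosen after seeing the data, 15 genes were higher, with 3 of the interferon gamma and 1 of the MHC class II genes among them, and 0 monocyte markers lower. The cause was not tested. TMM factors moved the median log2 ratio of all genes to TAM_C1q in RTT from -0.13 to 0.04 and reversed no named gene.

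Directions reversed with own clusters were log2 RTT_PTGS12KO over RTT for Gbp2 (-0.19), Cxcl9 (-0.17) and Gbp5 (-0.16), and, against TAM_C1q in the knockout tumour, Areg (-0.61), Nos2 (-0.51), Cxcl2 (-0.28), Vegfa (-0.047), Nr4a2 (-0.44), Nr4a3 (-0.97) and Ptgs2 (-0.28). Where both assignments agreed, Nr4a3 was at -0.075.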

Other observations

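Within the TAM_Spp1 cells of a tumour, Cxcl2 varied together with Ptgs2 and Il1b from cell to cell, and Cxcl1 did so less. The Spearman correlation of Cxcl2 with Ptgs2 was 0.64 over the 2057 cells of RTT, 0.50 over the 1500 of RTT_ROSA26 and 0.43 over the 1267 of RTT_PTGS12KO, and that of Cxcl2 with Il1b was 0.63, 0.44 and 0.40. For Cxcl1 with Ptgs2 it was 0.41, 0.26 and 0.15, and for Cxcl1 with Il1b 0.35, 0.20 and 0.09. Spp1 with Fn1 had 0.43, 0.34 and 0.33. These describe cells that share a library and differ in depth, and no test was made.

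The border between TAM_Spp1 and TAM_C1q was gradual. On the log2 ratio of the TAM_Spp1 markers to the complement macrophage markers per cell, 24.0% of TAM_Spp1 cells in RTT, 19.1% in RTT_ROSA26 and 31.5% in RTT_PTGS12KO lay past the midpoint of both class medians, towards TAM_C1q. The 9 markers took a median of 1.19%, 1.39% and 1.09% of a TAM_Spp1 cell's UMIs and 0.53%, 0.54% and 0.77% of a TAM_C1q cell's.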
